A study of Rattus norvegicus with 12 samples.

Results

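The genes described are the hepatic components of the circulating insulin-like growth factor 1 (IGF1) system: Igf1 itself, Igfals, which encodes the acid-labile subunit, and the IGF-binding protein genes Igfbp1, Igfbp2, Igfbp3 and Igfbp4. These 6 genes were taken by symbol from the 16478 gene rows of the deposited count files, and each of the 6 symbols was found once. The counts came from liver RNA of 12 ZSF1 rats, 6 females and 6 males, sequenced as 1 library per animal. All animals were obese adults aged 16 weeks, received no treatment and had free access to chow and water, per the labels. The obese ZSF1 rat is a hybrid that carries defective leptin receptor alleles from both parental lines, so every animal in both groups shared that defect, and lean rats were not analysed here. The labels give neither feeding state at collection nor stage of the estrous cycle, and they name no litter, batch or collection time.

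As background, growth hormone acts on hepatocytes through its receptor, the kinase JAK2 and the transcription factor STAT5B, and this pathway drives Igf1 and Igfals. Most IGF1 in plasma circulates in a complex with IGFBP3 and the acid-labile subunit, which keeps it in the bloodstream, while IGFBP1, IGFBP2 and IGFBP4 form smaller complexes that can leave it. Insulin represses Igfbp1 in the liver, and fasting raises it. In rat liver Igf1, Igfals, Igfbp1 and Igfbp4 are known mainly from hepatocytes and Igfbp3 from nonparenchymal cells.

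Libraries held between 6763879 and 29232871 counts over genes. Male 4 stood apart in acute phase genes and macrophage markers, and over all tested genes it was the highest or lowest male at 58.8% of them. Female 12 was the highest or lowest female at 49.4%, where the other animals ranged from 21.8% to 42.5%. Calls of the 6 genes that turn on either animal are given with and without it. In bulk liver RNA, fewer cells of a type and less RNA per cell cannot be told apart.

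The sequences just before the start sites of 3 of the genes are shown because their motif content differs and 1 of them holds the element for which Igfbp1 is known. They are the 250 bases before the start site in RefSeq (build GRCr8), which held all 6 genes. They are written 5′ to 3′ on the strand of the gene. Capitals in the Igfbp1 sequence (chr14:86261027-86261276, plus strand) mark CAAAACAA, the core of the insulin response element bound by forkhead factors of the FOXO family, which begins 121 bases before the start site. Capitals in the Igf1 sequence (chr7:24172282-24172531, plus strand) mark the same letters, 67 bases before the start site. Capitals in the Igfbp4 sequence (chr10:84491221-84491470, plus strand) mark TATAAA, the letters of a TATA box, which begin 40 bases before the start site.
Igfbp1: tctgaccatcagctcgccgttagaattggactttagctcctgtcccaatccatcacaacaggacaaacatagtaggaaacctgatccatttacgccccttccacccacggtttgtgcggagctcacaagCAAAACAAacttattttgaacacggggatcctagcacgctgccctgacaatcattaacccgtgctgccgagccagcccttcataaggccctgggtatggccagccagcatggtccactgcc
Igf1: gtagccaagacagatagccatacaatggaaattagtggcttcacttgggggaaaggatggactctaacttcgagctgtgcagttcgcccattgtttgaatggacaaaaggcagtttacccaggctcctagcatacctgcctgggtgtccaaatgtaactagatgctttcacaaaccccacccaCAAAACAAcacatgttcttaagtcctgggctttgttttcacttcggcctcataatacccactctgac
Igfbp4: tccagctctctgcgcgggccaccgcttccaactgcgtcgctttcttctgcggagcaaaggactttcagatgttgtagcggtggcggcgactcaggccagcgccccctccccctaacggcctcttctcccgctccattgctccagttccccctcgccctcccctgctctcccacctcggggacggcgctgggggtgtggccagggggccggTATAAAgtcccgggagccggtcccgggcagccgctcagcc

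Each motif was searched on both strands in all 33469 RefSeq windows of this length. CAAAACAA was present in 1.94% of them and in 2 of the 6 genes, Igfbp1 and Igf1. TATAAA was present in 12.9% of windows and in 1 of the 6, Igfbp4. The STAT5-type element TTCNNNGAA was present in 7.67% of windows and the forkhead element GTAAACA in 3.21%, and neither was found in the windows of the 6 genes. CACGTG was present in 5.59% of windows and in 1 of the 6, Igfbp2. A match is a run of letters in 1 window, and Igf1 has further start sites outside the one used here. On the same build no protein-coding gene lies between Igfbp1 and Igfbp3, which are neighbours on chromosome 14.

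Levels are given as CPM, read counts scaled to a common library size with TMM factors, the normalization of edgeR. CPM are not corrected for gene length, so they are compared between animals and not between genes. Igf1, the growth factor gene, ranged in females from 330.5 to 490 CPM with a median of 453, and in males from 337 to 432 with a median of 375. Females 8, 10 and 13 lay above every male and female 12 lay below every male, so the sexes overlapped. The means were 434 ± 64.7 CPM in females and 379 ± 40.1 in males (SD, n = 6 each). The difference was 1.15-fold toward females (log2 0.20, SE 0.10, 95% interval 0.98 to 1.33-fold), with an adjusted p of 0.136 by edgeR's quasi-likelihood test.

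Igfals, whose product locks IGF1 and IGFBP3 into the large plasma complex, ranged from 262 to 368 CPM in females (median 299.8) and from 229 to 351 in males (median 291). Males 1 and 5 lay below every female and female 10 lay above every male. The means were 306 ± 39.7 and 290.4 ± 50.7 CPM (SD, n = 6 each), a ratio of 1.06 with a 95% interval of 0.89 to 1.25-fold. Its adjusted p was 0.618 by edgeR, and the lowest over all alternative fits was 0.365.

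Igfbp3 encodes the main carrier of IGF1 in plasma. It stood at 27.0 to 45.3 CPM in females (median 32.0) and 34.0 to 56.4 in males (median 37.2). Females 7, 9 and 10 were below every male, and males 2 and 4 were above every female. The means were 34.7 ± 8.48 and 41.1 ± 8.45 CPM (SD, n = 6 each), 1.18-fold higher in males, with an edgeR adjusted p of 0.247 and a 95% interval of 0.66 to 1.08-fold for females over males.

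Markers of nonparenchymal cells were measured beside it. Of 12 sinusoidal endothelial markers listed, 7 were found in the count files and 6 were tested. Stab1, Stab2, Clec4g, Kdr and Vwf were not found. Of the 6 tested, 4 were higher in females and none in males, beside 20.5% and 22.7% of all tested genes. The summed level of those found ran from 84.0 to 106 CPM in females and from 31.4 to 85.5 in males. Of 12 tested Kupffer cell and macrophage markers 3 were higher in females and none in males (11 without male 4), with summed levels of 250.1 to 369 and 146 to 565 CPM, and Lyz2 was listed at 0 in every library. Among 11 tested stellate cell and fibroblast markers, females were higher for 3 and males for 2 (5 and 1 of 12 without male 4, and 1 to 2 for males with any 1 animal left out), and the summed levels were 204 to 289 and 162 to 298 CPM. Male 4, with the second highest male Igfbp3, had the highest male sum for macrophage markers. The part of these cell types in the Igfbp3 values was not tested.

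Igfbp4 encodes a binding protein that holds IGF1 away from its receptor until it is cleaved. It ranged from 588 to 1124 CPM in females (median 769) and from 779 to 1166 in males (median 928). Of the females, 5 lay below every male, the highest of them at 779.26 CPM beside male 5 at 779.345, and female 12 exceeded every male but male 4. The means were 792 ± 178 and 949 ± 132 CPM (SD, n = 6 each), 1.198-fold higher in males (log2 -0.26, SE 0.13, 95% interval 0.68 to 1.02-fold for females over males). The edgeR adjusted p was 0.131.

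Igfbp1, the insulin-repressed binding protein gene, varied most widely among animals of the 5 tested genes. Females 7 and 10 stood at 4.35 and 4.84 CPM, females 8, 9 and 13 at 13.3, 9.01 and 15.4, and female 12 at 69.6, 16.0 times the lowest female. Males ranged from 13.6 to 40.2 CPM with a median of 18.8, a span of 2.96-fold, and male 5 was the highest. Females 7, 8, 9 and 10 were thus below every male and female 12 was above every male. The means were 19.4 ± 24.97 and 22.1 ± 9.57 CPM (SD, n = 6 each), and the fitted log2 fold change was -0.18 with an SE of 0.62 and an edgeR adjusted p of 0.845. Its 95% interval, 0.34 to 2.28-fold, covers differences over 2-fold in either direction. Only 0.241% of all tested genes had a larger SE. On mean log2 CPM, where a single high animal weighs less, the difference was -0.80 (2-sided exact permutation p = 0.232 over 924 assignments), and limma-voom gave -0.78 with an adjusted p of 0.210.

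Igfbp2, a binding protein gene that leptin is known to raise in liver, was close to the limit of detection. Its counts ran from 1 to 19 per library, and 3 counts correspond to between 0.105 and 0.416 CPM at these depths. It did not pass the filter on low counts and was the 1 gene of the 6 left untested. Females ranged from 0.198 to 0.804 CPM (median 0.671) and males from 0.0547 to 1.04 (median 0.338). Males 1 and 2 had 1 count each, while male 4 was above every female. Summed counts were 64 in females and 45 in males, a scaled ratio of 1.601 (exact 95% binomial interval 1.08 to 2.40, which covers counting error only). The animals spread more widely than that: with no filter the edgeR adjusted p was 0.400, in a fit that called 30.6% of 13798 genes, and DESeq2 gave 0.475.

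**Figure D1:**
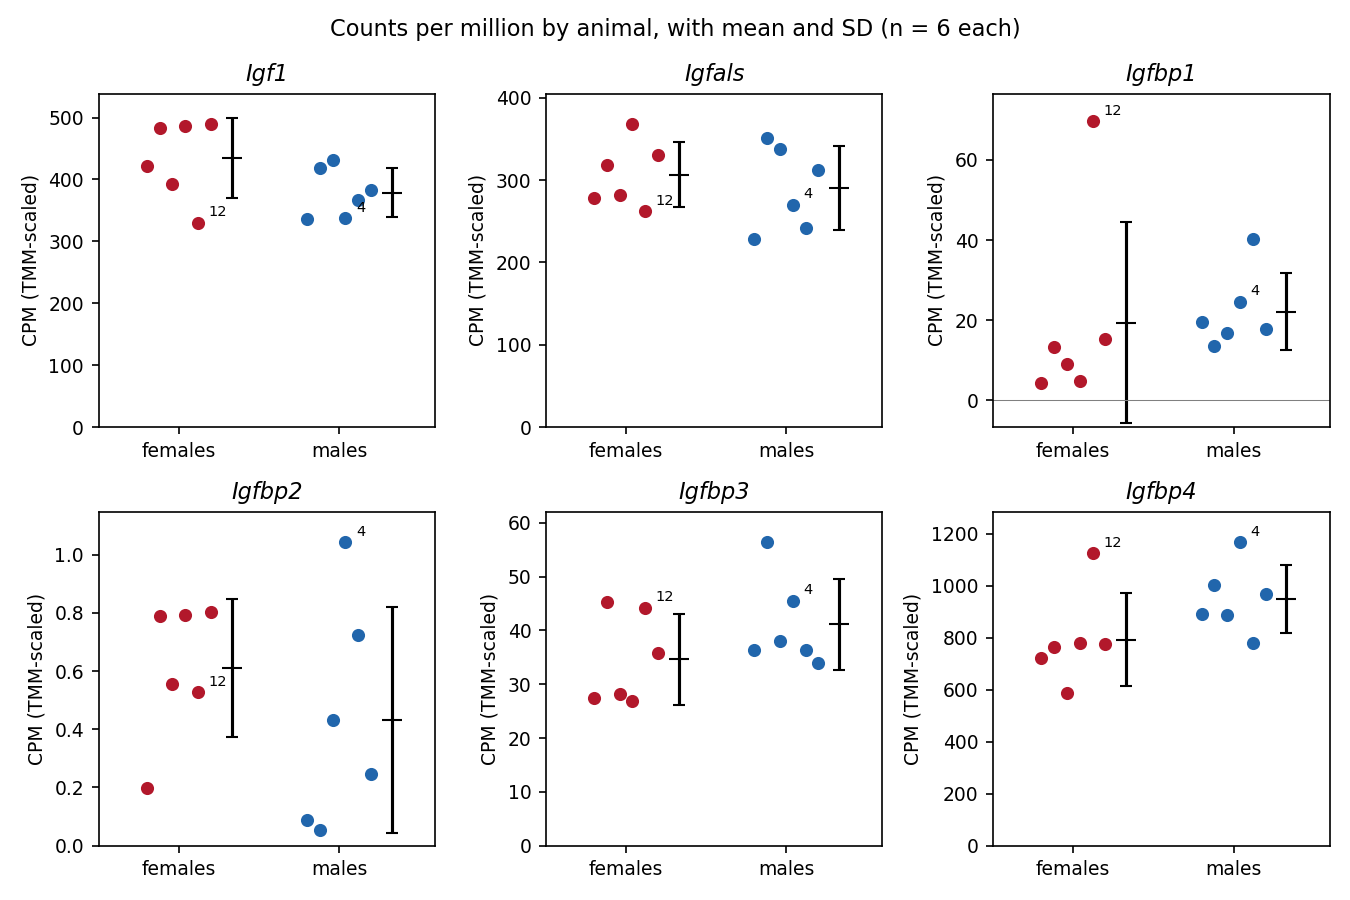
Levels in CPM (TMM-scaled, linear axis) of the 6 genes in each animal, females in red and males in blue, with the mean and SD of 6 animals in black beside the points. Female 12 and male 4 are numbered: female 12 is the highest female for Igfbp1 (69.6 CPM) and Igfbp4 (1124 CPM) and the lowest for Igf1 (330.5 CPM), and the SD bar of the females for Igfbp1 reaches below 0.

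None of the 5 tested genes was called at an adjusted p under 0.05 by edgeR, against 43.2% of all 9943 tested genes (20.5% higher in females and 22.7% higher in males). In that fit an unadjusted p under 0.05 was reached by 0 of the 5 as well. With other scaling Igf1 had an unadjusted edgeR p of 0.0449 (upper quartile factors) and 0.0480 (library totals). The adjusted p values were 0.0906 and 0.0991. DESeq2 called 0 of 6 and limma-voom 0 of 5. The sexes overlapped in all 5, while 22.8% of tested genes showed no overlap. The median absolute log2 fold change of the 5 was 0.20, beside 0.24 over all tested genes. Missing the threshold does not show that the sexes were alike: the intervals still allow up to 1.33-fold for Igf1 and 1.25-fold for Igfals toward females.

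Calls for 3 of the genes turned on female 12. That animal was itself the outlying female for Igfbp1 and Igfbp4, and leaving it out lowered the SE (for Igfbp1 from 0.62 to 0.39). The adjusted p values below therefore describe dependence on this animal and are not taken at face value. Without that animal Igf1 was 1.2004-fold higher in females (log2 0.26, SE 0.09, edgeR adjusted p = 0.0248). Igfbp4 was then 1.31-fold higher in males (log2 -0.39, SE 0.10, adjusted p = 0.00889) and Igfbp1 2.29-fold higher in males (log2 -1.20, SE 0.39, adjusted p = 0.0287). Igfals and Igfbp3 were not called in that fit either, at adjusted p of 0.446 and 0.133. Igfbp2 passed the filter in it and had an adjusted p of 0.364. This fit called 41.8% of 10010 genes, 19.7% higher in females and 22.1% higher in males, so 3 of 6 members called was close to the share of all genes. With male 4 left out as well, a fit that called 46.7% of genes, Igf1 (adjusted p = 0.0223) and Igfbp4 (0.00896) were called and Igfbp1 (0.0652) was not. Leaving out any other single animal gave no call for the 5 genes tested with all animals. Igfbp2 passed the filter in 7 of the 12 fits with 1 animal left out and was called in none of them (edgeR adjusted p of at least 0.270).

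**Figure D2:**
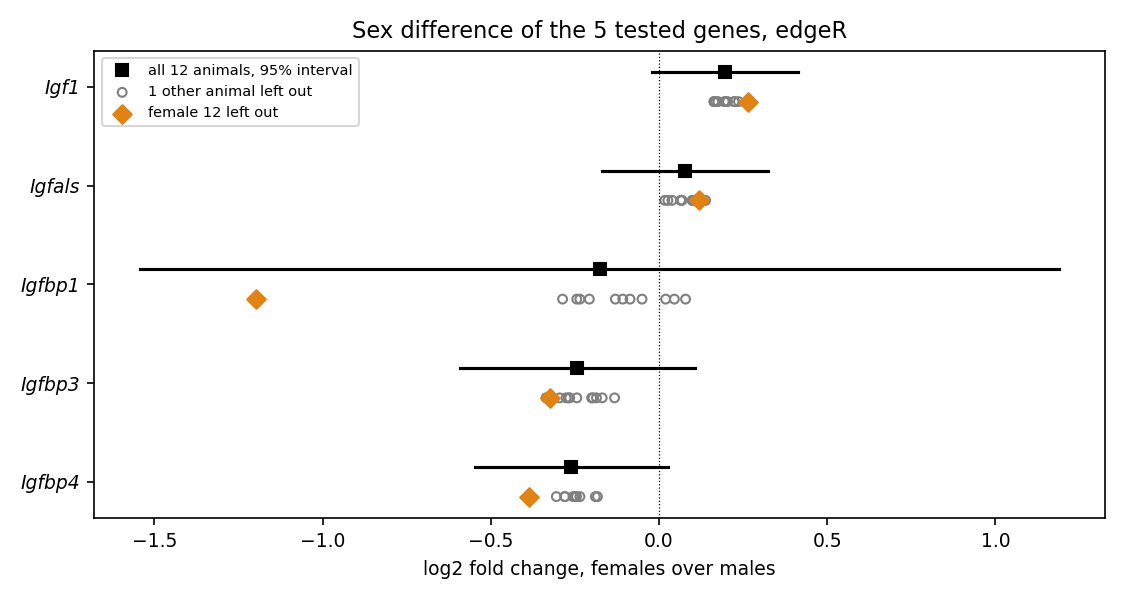
Log2 fold change of females over males (horizontal axis) for the 5 tested genes: black squares with 95% intervals for all 12 animals, open circles for fits with 1 other animal left out, and orange diamonds for the fit without female 12. The diamond of Igfbp1 lies at -1.20, far from its value of -0.18 with all animals, while Igfals stays between 0.02 and 0.14.

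Compared with the other 5 females, female 12 had 7.40 times their mean Igfbp1 (9.40 ± 4.96 CPM, SD, n = 5) and 1.55 times their mean Igfbp4 (725 ± 80.05 CPM). Its Igf1 was 0.73 times theirs (455 ± 44.9 CPM) and its Igfals 0.83 times (315 ± 37.1 CPM). Female 12 was therefore high for these binding proteins and low for the growth factor and the acid-labile subunit. Igfbp3, at 44.2 CPM, was second highest among the females.

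Genes that respond to insulin and fasting were measured in the same animals. Pck1, which encodes the carboxykinase that commits carbon to gluconeogenesis and is repressed by insulin, stood at 257 to 582 CPM in 5 females, at 1743 in female 12 and at 1807 to 2898 in males. Female 12 thus lay between the other females and the males for Pck1. Over the 7 genes of the insulin and fasting list that were called higher in males, female 12 was above the other 5 females for 5, and for 4 of these, Irs2 among them, it was within the male range. For the other 2 it was among the females: Trib3 stood at 1.43 CPM in female 12, at 1.15 to 2.77 in the other females and at 3.55 to 7.90 in males, and Cebpb at 48.1, 43.9 to 63.5 and 64.7 to 117 CPM. G6pc, the last enzyme gene of glucose release, was at 430.4 CPM in female 12, at 158 to 219.5 in the other females and at 165 to 728 in males, with the highest value in male 5, which also had the highest male Igfbp1. It was not called (edgeR adjusted p = 0.0533) and was 2.32-fold higher in males without female 12 (adjusted p = 0.0117). The 7 genes were picked for being higher in males. Over all tested genes female 12 was the highest or lowest female at 49.4% of them. That share counts both directions, so it is not a like background for the 5 of 7, and a share for highest alone is not given here. Female 12 was above every other animal for Fgf21 (38.7 CPM, next 26.7), Ddit3 (29.0, next 19.1) and Angptl4 (335, next 320). For Pdk4, at 95.4 CPM, it was within the range of the other females (67.4 to 101). The part of insulin or feeding in the Igfbp1 values was not tested.

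**Figure D3:**
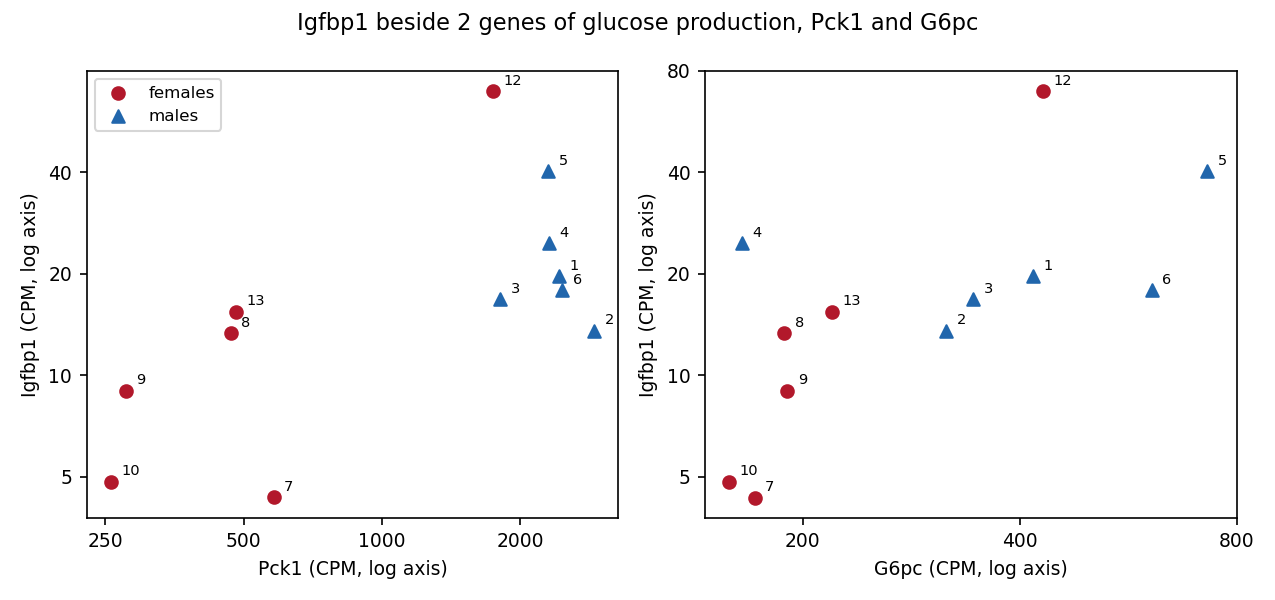
Igfbp1 (vertical, CPM, log axis) against Pck1 (left) and G6pc (right, both CPM, log axes) in each numbered animal, females as red circles and males as blue triangles. Female 12, at 69.6 CPM of Igfbp1, lies near the males for Pck1 (1743 CPM) and among the males for G6pc (430.4 CPM), above every other female for both.

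Among the 19 tested insulin- and fasting-responsive genes, males exceeded females for 7 and females exceeded males for 3. Those directions held 22.7% and 20.5% of all tested genes. The median log2 fold change was -0.10, beside -0.013 over all tested genes. The list was not split by the direction in which insulin or fasting acts, so its median gives no direction of response. Genes called toward females included Pdk4 (1.73-fold, edgeR adjusted p = 0.00410) and Angptl4 (1.29-fold, 0.0371, and 0.0833 without female 12). Pck1 was 3.73-fold higher in males (adjusted p = 0.00408), and 5.73-fold without female 12. Trib3, which encodes a pseudokinase that inhibits AKT, was 2.84-fold higher in males (adjusted p = 0.000354), and Irs2, an insulin receptor substrate gene, 1.84-fold (adjusted p = 0.0286). Tat, the tyrosine aminotransferase gene, was the most abundant of those not called, at 791 ± 133 and 802 ± 345 CPM. Without female 12 the counts were 9 in males and 2 in females.

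Within each sex, Igf1 and Igfals varied together from animal to animal. After the mean of each sex was subtracted from log2 CPM, their Pearson r over 12 animals was 0.82 (permutation p = 0.00111, and 0.0166 adjusted over the 15 pairs of members). Spearman's rho was 0.77 (permutation p = 0.00523, adjusted 0.0784), r was 0.87 in females and 0.87 in males (n = 6 each), and without female 12 and male 3, the animals farthest from the median of Igf1, it was 0.82. Without female 12 alone r was 0.85 but the adjusted permutation p was 0.066. None of the other 14 pairs passed. Igfbp3 and Igfbp4 came next (r = 0.60, adjusted permutation p = 0.377, rho = 0.50 with adjusted p = 0.372). Igf1 and Igfbp1 had r = -0.58 (adjusted permutation p = 0.377, rho = -0.34 with adjusted p = 0.654), which was -0.17 without female 12 and male 3. The values without female 12 and male 3 used deviations from the sex means of all 12 animals. Without female 12 alone, with the sex means taken again, r for Igf1 and Igfbp1 was -0.077.

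**Figure D4:**
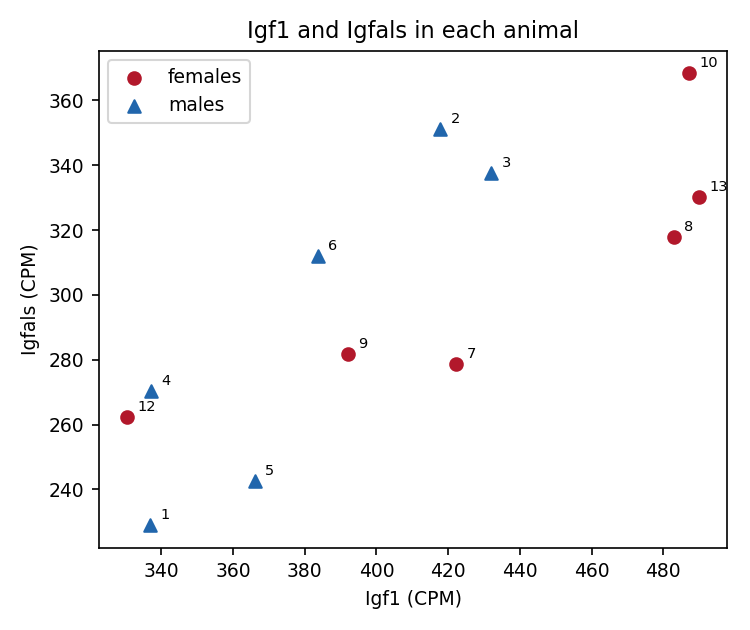
Igfals against Igf1 (both CPM, linear axes that do not start at 0) in each numbered animal, females as red circles and males as blue triangles. Within each sex the animals with more Igf1 have more Igfals (r = 0.87 in both), and males 2, 3, 4 and 6 have more Igfals per Igf1 (78.1 to 84.1 per 100) than every female but female 12.

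Ratios of counts within a library do not depend on its depth or scaling. There were 71.0 ± 5.60 Igfals counts per 100 Igf1 counts in females and 76.3 ± 7.42 in males (SD, n = 6 each). The females spanned 65.8 to 79.3 and the males 66.2 to 84.1, with 2 females below every male and 3 males above every female. Igfbp3 counts per 100 Igf1 counts were 8.22 ± 2.83 in females and 10.9 ± 2.14 in males. Here 4 females (7, 9, 10 and 13) lay below every male, and female 12, at 13.4, lay among the highest males. Igfbp3 counts per 100 Igfals counts were 11.5 ± 3.44 and 14.3 ± 2.58, with 4 females below every male and no male above every female. These ratios were described and not tested.

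The genes most like each member were sought among 7541 genes with a mean of at least 5 CPM, by Pearson r of within-sex deviations over the same 12 libraries. The r values describe these libraries, which share their depth and preparation. Nrep was first for both Igf1 (r = 0.93, rho = 0.94) and Igfals (r = 0.90, rho = 0.87), and Pvrl2, a nectin gene, followed in the top 3 of both (r = 0.90 and 0.87). Between them came Rilp for Igf1 (r = 0.90) and R3hdm2 for Igfals (r = 0.88, with 0.61 in females and 0.99 in males). Dusp1, a MAP kinase phosphatase and immediate early gene, was first for Igfbp3 (r = 0.90, rho = 0.85, and 0.89 without female 12), followed by Pigt and Nudt4 (r = 0.85 for both).

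For Igfbp4 the closest were Isyna1, the inositol phosphate synthase gene (r = 0.92), Lepre1, a collagen prolyl hydroxylase gene (r = 0.92), and Tyw1 (r = 0.91). For Igfbp1 they were Ggcx, the vitamin K-dependent carboxylase gene (r = 0.92, and 0.80 without female 12), Cdig2 (r = 0.91, and 0.77) and F7, the coagulation factor VII gene (r = 0.90, and 0.76). The likeness of F7 was uneven, with r = 0.96 in females and 0.40 in males. Isyna1 shared the high value of female 12, at 11.1 CPM against 4.55 in the next female. For Igfbp2 they were Ezh1, Zfat and Cdh1 (r from 0.89 to 0.95), a likeness that rests on 1 to 19 counts a library. The search took the best of 7541 genes, so high values were bound to occur.

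For growth hormone signalling upstream of Igf1, the list read also holds the leptin and prolactin receptor genes and liver transcription factor genes. Among its 19 tested genes, 7 were called toward females and 0 toward males, beside 20.5% and 22.7% of all tested genes. The median log2 fold change of the list was 0.17. The 7 were Jak2, Stat5a and Stat5b of the pathway, the other receptor genes Lepr and Prlr, and the transcription factor genes Hnf4a and Onecut1. The receptor gene Ghr, at 857 ± 96.5 and 762 ± 94.4 CPM (SD, n = 6 each), was not called (edgeR adjusted p = 0.175). Stat5b was 1.58-fold (32.4 ± 5.35 against 20.7 ± 2.08 CPM, adjusted p = 0.000159) and Stat5a 1.66-fold higher in females (adjusted p = 0.000161). Jak2, at 12.6 ± 1.44 and 10.2 ± 2.09 CPM, was 1.25-fold higher with an adjusted p of 0.0467, which was 0.092 without female 12. Socs2 and Cish encode feedback inhibitors that STAT5 induces. Cish ranged from 6.42 to 13.9 CPM in females and from 0.910 to 61.0 in males (adjusted p = 0.281), and Socs2 from 4.30 to 7.998 and from 0.699 to 19.5 (adjusted p = 0.915). Males therefore surrounded the females on both sides for these feedback genes. The prolactin receptor gene Prlr was 4.55-fold, the leptin receptor gene Lepr 3.98-fold and the transcription factor gene Onecut1 3.71-fold higher in females.

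Of the receptors that IGF1 and insulin act on, only the insulin receptor gene was called. Igf1r, the IGF1 receptor gene, was at 0.361 ± 0.221 and 0.247 ± 0.133 CPM and Igf2, the fetal ligand gene, at 0.591 ± 0.163 and 0.542 ± 0.379 (SD, n = 6 each). Both were too low to test. Igf2r, which clears IGF2, was not called at 60.04 ± 2.68 and 57.0 ± 4.33 CPM (edgeR adjusted p = 0.331). Insr, the insulin receptor gene, was 1.48-fold higher in females (45.0 ± 6.80 against 30.4 ± 2.26 CPM, adjusted p = 0.000186). Among 20 tested ligands, receptors and signalling genes, 8 were called toward females and 2 toward males, beside 20.5% and 22.7% of all tested genes. The median log2 fold change of the list was 0.18. The count toward males was 1 without female 8, 9 or 10 or male 2, 3 or 4, and 3 without female 12. The adaptor gene Irs3 was 2.77-fold and the kinase gene Pdpk1 1.47-fold higher in females. Grb14, an inhibitor of the insulin receptor, was the most abundant gene not called, at 82.3 ± 4.76 and 85.9 ± 5.94 CPM.

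Genes that act on binding proteins were measured as well. Of 15 tested proteases of binding proteins and protease inhibitors 7 were called toward females and 1 toward males (median log2 fold change 0.28). The shares over all tested genes were 20.5% and 22.7%. The list's count toward males was 0 in 10 of the 12 fits with 1 animal left out, all but those without male 1 or male 5. Timp3, a metalloprotease inhibitor gene, was 3.79-fold higher (12.0 ± 3.28 against 3.14 ± 1.13 CPM, SD, n = 6 each, edgeR adjusted p = 2.31e-05) and Ctsd, the cathepsin D gene, 1.44-fold (adjusted p = 5.95e-05). Adam28 was 1.599-fold and A2m, alpha-2-macroglobulin, 1.43-fold higher in females, while Plg, the plasminogen gene, at 2603 ± 253 and 2770 ± 187 CPM, was not called. Pappa, the main protease of IGFBP4, was near 0 (0.00705 and 0.00584 CPM) and could not be tested. Of 6 further IGF-binding or related genes Crim1 was called, 2.33-fold higher in females, and Htra1 was the most abundant not called (72.0 ± 7.97 and 81.4 ± 6.56 CPM, adjusted p = 0.0722). Without female 12, at 86.2 CPM, Htra1 was 1.18-fold higher in males (edgeR adjusted p = 0.0106), and without female 7 a second gene was called toward females. Igfbp7 (adjusted p = 0.250) and Igfbp6 (0.347) were not called, and Igfbp5, the other partner of the acid-labile subunit, was at 0.0862 and 0.0398 CPM, too low to test.

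**Figure D5:**
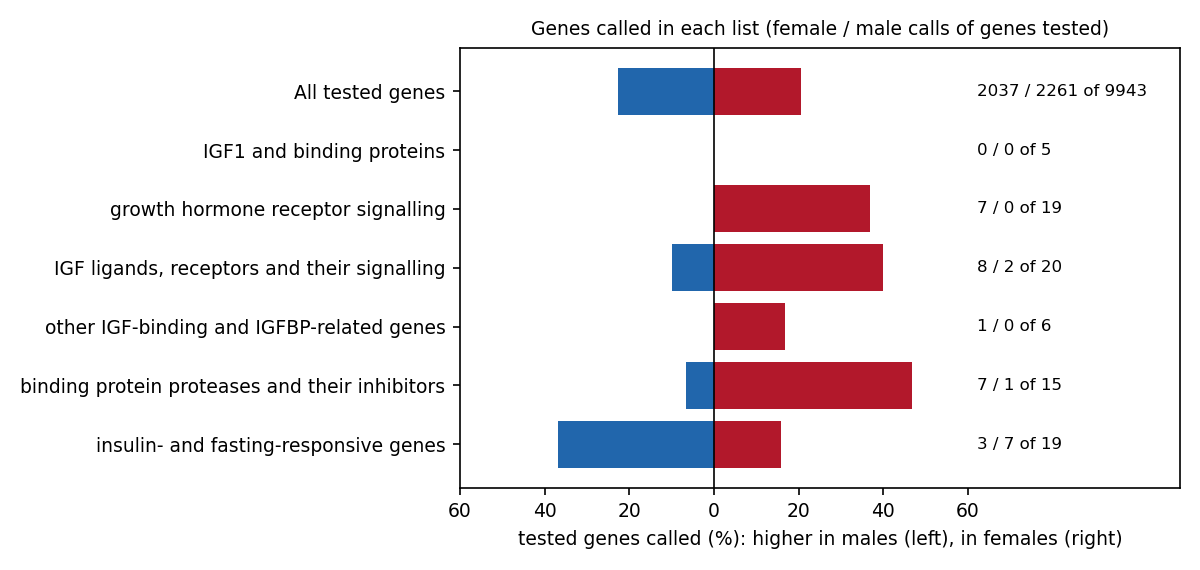
Share of tested genes with an edgeR adjusted p under 0.05 in each list, higher in males to the left (blue) and higher in females to the right (red), with the counts printed at the right as female and male calls of genes tested. The IGF1 and binding protein genes have 0 calls of 5, beside 2037 and 2261 of 9943 over all genes.

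The labelled tissue was checked on its markers. All 11 hepatocyte markers found were tested, with summed levels of 246155 to 325616 CPM in females and 212560 to 270322 in males. Females exceeded males for 2 of them and males exceeded females for 4, beside 20.5% and 22.7% of all tested genes. Without female 12 the counts were 1 and 5. The female count was also 1 without female 10 or 13 or male 1, 2 or 3. Of 9 adipocyte and pancreas markers found, 4 (Lep, Prss1, Prss2 and Ins1) were listed at 0 in every library. The list's summed level was 88.1 to 96.1 CPM in females and 105 to 126 in males, nearly all of it Cidec, a lipid droplet protein gene at 91.9 ± 3.55 and 114 ± 8.79 CPM that was 1.24-fold higher in males (edgeR adjusted p = 0.000556). Bile duct markers summed to 6.47 to 11.1 CPM in females and 6.23 to 15.1 in males. Acute phase genes, in which male 4 stood apart, were called toward males for 9 of 19 and toward females for 2. The shares over all tested genes were 22.7% and 20.5%. Without male 4 the acute phase counts were 7 and 2, and without female 12 they were 6 and 1. With any 1 animal left out the male count was 5 (without female 7) to 8, and the female count 0 (without female 8, 10 or 13 or male 1 or 2) to 2, with 1 without male 3, 5 or 6. Male 4 had 337 CPM of Igf1, within 1 CPM of the lowest male, and the highest male Igfbp4 and Igfbp2.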

How the data were processed

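Liver RNA of 12 animals was measured, 1 library each (Illumina TruSeq, per the labels' protocols). Bowtie2 2.0.2, DESeq and build rn4 are named in the submitters' processing notes. The counting program, annotation and strand setting are left as not given in the sources used here. Reads from antisense genes may therefore be mixed, although the names of the deposited counts hold the word strand, which no label explains. Raw read counts per gene symbol, without normalization, are what the authors deposited. In each file 5 rows named no gene, held 27.1% to 31.7% of counts and were left out. Reads marked as ambiguous had a row of their own among these and so were not counted to a gene. Samples were grouped by the sex and animal number in their titles. Each library is a separate animal per the labels, and all 30 pairs within a sex differed beyond sampling noise (lowest ratio of chi-square to its degrees of freedom 6.02).

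All genes were fitted together in edgeR 4.0.16 (R 4.3.3): filterByExpr (minimum count 10, minimum total 15), TMM factors, robust quasi-likelihood F test, and Benjamini-Hochberg adjustment over the 9943 genes tested. Called means an adjusted p under 0.05. SE was obtained as |log2 fold change| over root F. Log2 CPM used a prior count of 2. Pair correlations used 100000 shuffles within sex. Alternatives were RLE, upper quartile and total scaling, the 20 most abundant genes left out, other filters (none, or a mean of 1 CPM), DESeq2 1.42.0, limma-voom (limma 3.58.1), no robust dispersion and animals left out. The scripts were tested on simulated data. The exact permutation test on mean log2 CPM was chosen after the data were seen.

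The members, gene lists and tests were chosen with earlier results of these data known. Named genes were the members, the 3 genes most like each, 10 genes of the growth hormone and IGF pathway, and from each of 5 pathway lists up to 4 called genes with the largest change and the most abundant gene not called. The rule also gave marker and acute phase genes, which are described here by counts, and 1 named gene that is not reported here. Others named (G6pc, Cebpb, Pdk4, Angptl4, Fgf21, Ddit3, Hnf4a, Lyz2, Pappa, Igfbp5, Igfbp6, Igfbp7 and markers at 0) were chosen after their values were seen. Promoter sequences and gene order are from RefSeq (GRCr8), which matched 15931 of 16478 symbols.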

Additional observations from a re-analysis of the deposited data

Results flagged for a closer look

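Each group of 6 animals was examined for an animal whose gap to its nearest neighbour was too large a share of the group's range, for the members, their ratios and the pathway and similar genes named above. Such an animal was found in 9 of 110 groups. Chance gives about 1 in 20 for a single group, but the groups are not independent: Isyna1, Ezh1 and Dusp1 were chosen because they vary with a member, and the ratios restate the members. The number is therefore a description. Female 12 was the highest female for Igfbp1 (69.6 CPM, next 15.4), Igfbp4 (1124 CPM, next 779), Igfbp1 counts per Igfbp2 count (132, next 22), Pck1 (1743 CPM, next 582) and Isyna1 (11.1 CPM, next 4.55). Female 7 was the lowest female for Igfbp2 counts per Igf1 count (0.000468, next 0.00141), a ratio that rests on 2 Igfbp2 counts, and for Ezh1 (13.3 CPM, next 15.2). Male 2 was the highest male for Dusp1 (267 CPM, next 129.9), as it was for Igfbp3 (56.4 CPM). Male 6 was the highest male for A2m (19.99 CPM, next 14.4).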

How the results depend on the processing

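Of 125 alternative results for the members' sex differences 117 kept their direction and, for genes with a main test, their side of the threshold. The alternatives included the exact permutation tests, which carry an unadjusted p. For Igfbp2, which the main fit did not test, the alternatives were set against the ratio of its mean CPM. With 1 animal left out, the log2 fold change of Igf1 ran from 0.16 to 0.26, of Igfals from 0.02 to 0.14, of Igfbp3 from -0.34 to -0.13, of Igfbp4 from -0.39 to -0.18 and of Igfbp1 from -1.20 to 0.079. Igfbp1 turned toward females without female 7 (0.02), female 10 (0.05) or male 5 (0.079), with edgeR adjusted p of at least 0.936. Members higher in females numbered 0 to 1 and in males 0 to 2, the most without female 12. Without male 4 and female 12 they numbered 1 and 1, with Igf1 at 0.24 and Igfbp4 at -0.31 past the threshold. The number of member pairs that varied together within sex was 1, and 0 to 1 with an animal left out (0 without female 12). Of 528 counts of called genes over the lists, 66 moved by over 1.5 times, 50 of them with animals left out. No paired analysis was possible because the sexes share no animal number. Depth limits Igfbp2, Igf1r, Igf2 and Pappa, which were too low to test.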
